A study of Mus musculus with 6 samples.

Results

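The extracellular matrix and its cell surface receptors were followed in RENCA cells, as the genes that the deposited annotation places in the KEGG pathway for ECM-receptor interaction. That rule gave 86 of the 78298 genes in the table, 1 gene of the pathway being left out. They comprised 18 collagens, 10 laminins, 25 other ligands, 19 integrins and 14 other receptors. The rule for membership uses the annotation and no measured value.

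The matrix is a network of secreted proteins to which cells anchor. Type IV collagen and laminin build the basement membrane beneath epithelia such as the renal tubule, each laminin being a trimer of an alpha, a beta and a gamma chain. Integrins are transmembrane receptors of paired alpha and beta chains that bind these ligands outside the cell and the actin cytoskeleton inside it, and dystroglycan and the syndecans are receptors of other families that bind the same network.

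RENCA is a cell line from a renal adenocarcinoma of a BALB/c mouse. Cells received a lentivirus carrying the mouse Aqp1 coding sequence under the ubiquitin C promoter (oe-AQP1, 3 samples) or the corresponding vector without the insert (oe-NC, 3 samples). Starting 48 h after transduction, both groups were put under puromycin (2 μg/mL) and kept in it for 14 days. Both groups carry the resistance cassette, and are 1 selected cell population each, in a single labelled batch. The series description calls the samples biological replicates but does not say that they came from separate transductions, so the p-values measure the spread between these samples, which may be technical.

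Libraries held 18385714.02 to 21920898.67 expected counts, the read counts assigned to genes. Aqp1, the water channel that was introduced, had 7713, 8545 and 7838 counts in oe-AQP1 replicates 1 to 3 and 41, 25 and 45 in oe-NC, matching the labels (log2FC = 7.70, FDR = 1.34e-10). FDR is the Benjamini-Hochberg adjusted p of limma-voom over all 15522 genes tested, and log2FC is the log2 of oe-AQP1 over oe-NC. oe-NC replicate 1 stood apart from its group, with a chi-square per gene of 9.81 and 11.38 against the other oe-NC samples, while every other pair within a group gave 1.71 to 2.04. Of 8 tested markers of renal epithelium and the tumor line, 6 were lower in oe-AQP1 and 0 higher (median log2FC -0.52). The 6 were Krt8, Krt18, Krt19, Cdh1, Cdh16 and Lrp2, with log2FC from -0.97 (Krt19) to -0.27 (Krt18). Over all tested genes 16.6% were lower and 16% higher. Without oe-NC replicate 1, 5 of the tested markers were lower and 1 higher, against 20.7% and 19.4% of all genes. Krt19 no longer passed there (FDR = 0.104), and the higher one was Pax2 (log2FC = 0.41, FDR = 3.99e-06). Pax8, a renal transcription factor that did not pass, was at 164 CPM in oe-AQP1 and 172 in oe-NC, while Epcam had no count and Slc34a1, a phosphate transporter of the proximal tubule, at most 1. CPM values are counts relative to the library total after TMM scaling.

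Promoter sequences are shown for genes on which the results below turn, namely Col4a4, the most abundant collagen, Col4a1 from the other expressed type IV pair, Tnc, the ligand with the lowest FDR among those lower in oe-AQP1, and Spp1, the ligand called higher. Each runs 5′ to 3′ on the gene's strand from 250 bases before to 50 bases after the start in RefSeq (GRCm38.p6), and 67 of the 86 members have such an entry. Capitals mark matches on either strand to a CCAAT box or, spelled out, to a GC box as GGGCGG. They also mark a TATA box, searched as TATAAA, and would mark an AP-1 site, searched as TGANTCA, which none of the windows held. The windows are, in order, chr1:82586800-82587099 on the minus strand, chr8:11312777-11313076 on the minus strand, chr4:64046966-64047265 on the minus strand and chr5:104434861-104435160 on the plus strand.
Col4a4: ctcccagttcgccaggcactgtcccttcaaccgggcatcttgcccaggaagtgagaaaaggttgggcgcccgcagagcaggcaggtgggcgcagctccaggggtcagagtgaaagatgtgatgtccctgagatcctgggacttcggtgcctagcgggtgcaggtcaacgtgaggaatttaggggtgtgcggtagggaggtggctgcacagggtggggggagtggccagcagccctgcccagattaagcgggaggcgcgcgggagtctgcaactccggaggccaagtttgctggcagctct
Col4a1: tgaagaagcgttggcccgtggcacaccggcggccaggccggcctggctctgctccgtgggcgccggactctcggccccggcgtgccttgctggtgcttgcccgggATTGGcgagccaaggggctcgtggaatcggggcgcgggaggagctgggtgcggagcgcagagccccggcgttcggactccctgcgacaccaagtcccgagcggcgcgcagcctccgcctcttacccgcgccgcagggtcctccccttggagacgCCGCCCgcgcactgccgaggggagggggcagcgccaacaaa
Tnc: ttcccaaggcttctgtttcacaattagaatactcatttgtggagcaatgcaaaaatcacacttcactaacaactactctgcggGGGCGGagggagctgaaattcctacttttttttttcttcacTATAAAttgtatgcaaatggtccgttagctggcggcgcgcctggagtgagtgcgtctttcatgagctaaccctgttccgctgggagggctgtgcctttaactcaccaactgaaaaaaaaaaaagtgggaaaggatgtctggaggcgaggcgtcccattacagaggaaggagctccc
Spp1: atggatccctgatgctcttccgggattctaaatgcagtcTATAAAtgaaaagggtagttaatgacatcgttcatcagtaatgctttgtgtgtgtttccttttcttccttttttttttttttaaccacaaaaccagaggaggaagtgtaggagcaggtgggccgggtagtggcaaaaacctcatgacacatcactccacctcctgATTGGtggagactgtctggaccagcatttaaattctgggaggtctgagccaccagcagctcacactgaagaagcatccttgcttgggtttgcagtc

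The Col4a4 window held no match to the 4 motifs and had a GC content of 63.3%. The Col4a1 window had 1 CCAAT box and 1 GC box, and it shared 78 bases with the window of Col4a2, whose start lies 21 bases away on the opposite strand. Tnc had 1 GC box and 1 TATA box, and Spp1 had 1 CCAAT box and 1 TATA box. Of 32851 promoter windows of this length, 37.4% held a CCAAT box, 35.7% a GC box, 13.6% a TATA box and 7.81% an AP-1 site. These matches are descriptions of the letters only, counted anywhere in the window without regard to the distance from the start.

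Transcripts of collagens, laminins, integrins and other members were compared between oe-AQP1 and oe-NC to ask how they differ when AQP1 is overexpressed. Of the 86 members, 47 had enough counts to be tested, of which 23 were lower in oe-AQP1 at an FDR under 0.05, 4 were higher and 20 did not pass. Over all tested genes 16.6% were called lower and 16% higher, so that 48.9% of the tested members against that background were lower and 8.51% were higher. The median log2FC was -0.37 over the tested members and 0.00 over all genes. oe-NC replicate 1 was the highest oe-NC sample for 19 of the 23 members called lower. All 23 also passed without that sample, where 20.7% of all genes were called lower, and their median log2FC moved from -0.68 to -0.59. In the same refit 8 members in place of 4 were higher, against 19.4% of all genes. In RNA from whole cultures, fewer cells expressing a gene and less RNA per cell cannot be told apart.

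The same counts were read among well-counted genes. Of the 33 members with a mean of at least 100 counts, 21 were lower, 3 were higher and 9 did not pass. Of all 10805 genes at that depth, 21.6% were lower and 17.5% higher. Median log2FC there was -0.34 for the members and -0.01 for all genes.

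At the stricter level that the study uses for a DEG (FDR under 0.05 and an absolute log2FC above 1), 4 members were lower and 0 higher, against 0.844% and 4.39% of all genes. The lower members were Col6a2, Col4a3, Col4a4 and Itgb6, and the highest log2FC of any tested member was 0.97. By limma-voom, 0 members had a log2FC above 1 at an unadjusted p under 0.05, and both edgeR and DESeq2 gave 0 higher DEGs. Without the low-count filter there was 1 (Lama2, FDR = 0.00699). Leaving out single samples gave 1 to 3 in 5 of the 6 refits and 0 without oe-AQP1 replicate 2. Samples of the groups did not overlap for 28 tested members that were lower and 6 that were higher, against a background of 23.8% and 23.5%.

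**Figure D1:**
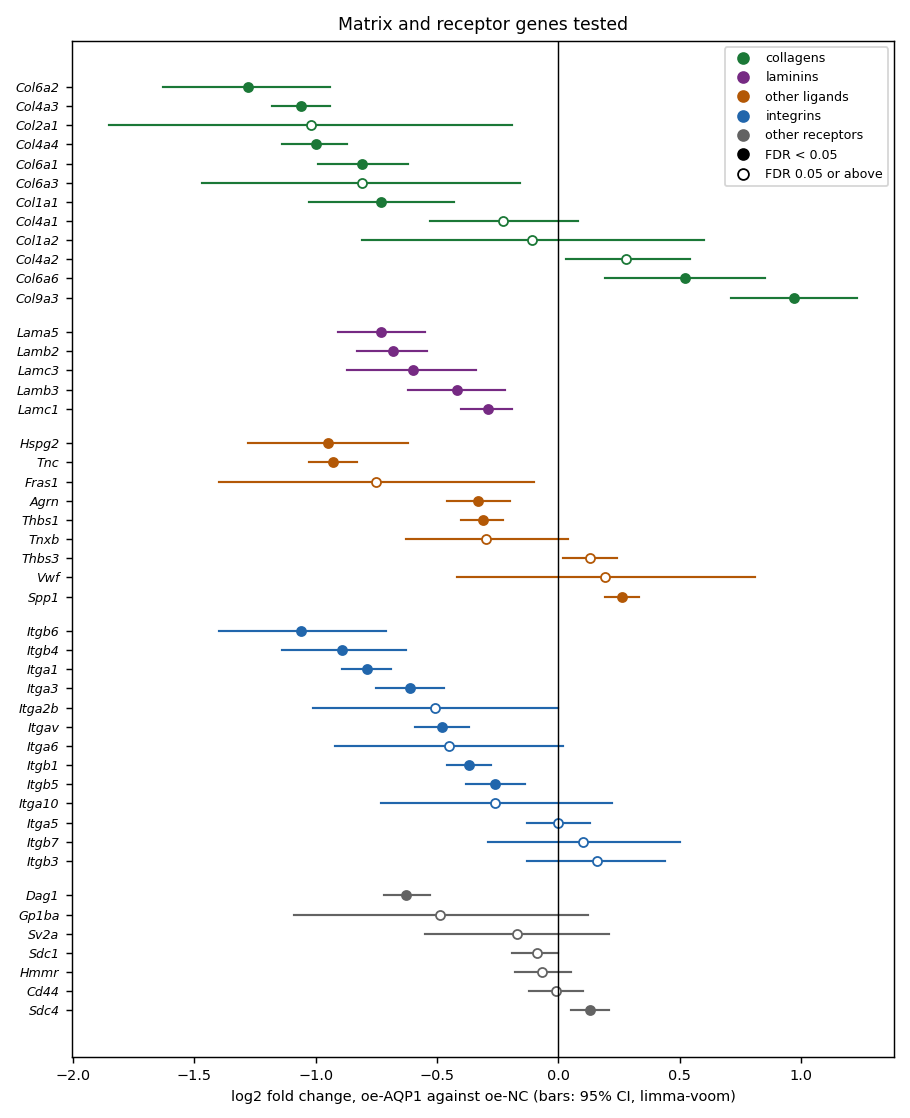
The plot shows the log2FC (horizontal axis) for 46 of the 47 members tested, by class, with bars for the 95% confidence interval of limma-voom and filled points for an FDR under 0.05. Filled points lie left of 0 for 22 members and right of 0 for 4, and all 5 laminins shown lie left of 0.

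The 39 members outside the test had few or no reads. Of these, 31 had fewer than 10 counts in every sample, including 7 with none at all, and the highest single value was 18 counts. Summed over the class, laminins made up 797 to 814 CPM with oe-AQP1 and 1108 to 1350 with oe-NC, integrins 1640 to 1656 and 2112 to 2236, and collagens 293 to 297 and 505 to 599. None of these ranges overlapped between groups, nor did those of the other ligands (1358 to 1377 against 1439 to 1530) or the other receptors (773 to 778 against 848 to 889). Such sums weigh the most abundant members most. Among the other receptors, Dag1 alone was at 168 CPM in oe-AQP1 and 260 in oe-NC, while the class median log2FC was -0.09. Taken singly, 23.8% of all tested genes were lower without overlap and 23.5% higher.

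**Figure D2:**
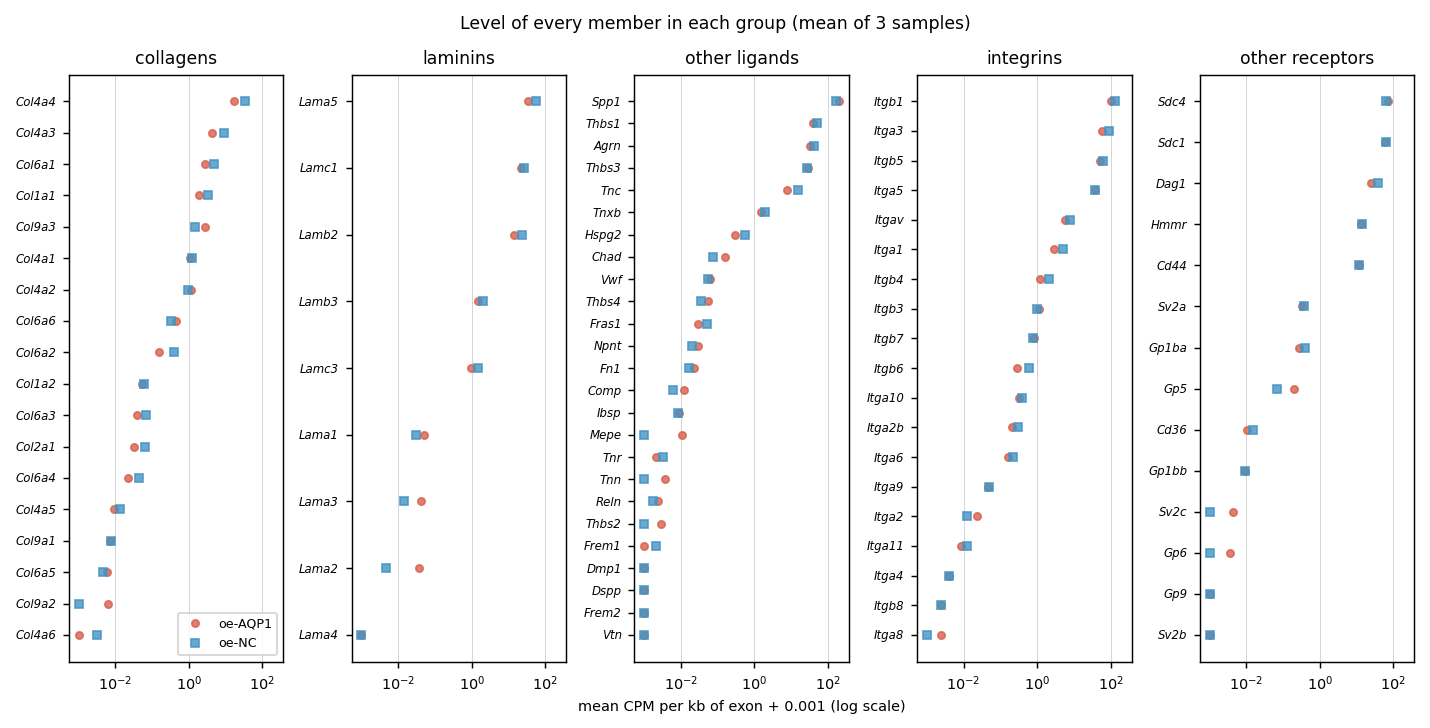
The plot gives the mean level of 85 of the 86 members in CPM per kb of exon, plus 0.001 on a log scale, in oe-AQP1 (circles) and oe-NC (squares), with each class ordered by level. A few members carry each class, led by Col4a4, Lama5, Spp1, Itgb1 and Sdc4, and the 7 members without any count sit at the left edge.

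Collagens, the fibrous and network-forming proteins of the matrix, gave 5 genes lower and 2 higher among 12 tested, with a median log2FC of -0.77. The share higher, 16.7%, was near the 16% of all genes, and the share lower was 41.7% against 16.6%. Per kb of exon, the RENCA cells expressed mainly type IV chains of the pair found in specialised basement membranes such as that of the glomerulus, Col4a4 at 33.0 ± 3.02 CPM per kb in oe-NC (SD, n = 3) and Col4a3 at 8.87 ± 0.486. Col4a1 and Col4a2, the type IV chains of nearly all basement membranes, were at 1.23 ± 0.179 and 0.947 ± 0.128. Col4a5 and Col4a6 had 0 to 3 and 0 to 1 counts per sample.

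Col4a4 (ENSMUSG00000067158, chr1:82426144-82564800, minus strand) was at 185, 185 and 191 CPM in oe-AQP1 and 414, 369 and 346.5 in oe-NC. The groups did not overlap, and the oe-NC samples spread more widely than the oe-AQP1 samples. Expression was 2.0-fold lower in oe-AQP1 (log2FC = -1.0, SE 0.06, FDR = 7.69e-07). That value lies at the DEG threshold. The DEG call was lost without oe-NC replicate 1 (log2FC = -0.93), under a filter of 10 counts per sample (-0.99) and without oe-AQP1 replicate 2.

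Col4a3 (chr1:82564642-82699780, plus strand), which lies head to head with Col4a4, was at 41.0, 42.3 and 43.5 CPM in oe-AQP1 and 93.9, 86.3 and 84.9 in oe-NC. It was 2.09-fold lower in oe-AQP1 (log2FC = -1.06, SE 0.05, FDR = 2.11e-07). The ratio of Col4a3 to Col4a4 counts stayed between 0.221 and 0.228 with oe-AQP1 and between 0.227 and 0.245 with oe-NC. Exons of the genes overlap by 159 bases on opposite strands, 1.6% of the exon length of Col4a3, and 8.46% of Col4a3's exons overlap an antisense transcript with a mean of 37.8 counts. The counting is not stated to use strand, so reads in these stretches cannot be told apart.

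Neither gene of the second pair, on chromosome 8, passed. Col4a1 was at 8.70, 8.28 and 6.62 CPM in oe-AQP1 and 10.6, 7.88 and 9.10 in oe-NC, with overlapping groups (log2FC = -0.23, 95% CI -0.53 to 0.08, FDR = 0.238). Col4a2 was at 8.19, 8.14 and 8.27 CPM against 7.74, 6.73 and 5.91 (log2FC = 0.28, 95% CI 0.03 to 0.54, FDR = 0.0809). Without oe-NC replicate 1 Col4a2 passed (log2FC = 0.38, FDR = 0.0155). Whether the pairs differ in response was not tested.

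Col6a1 and Col6a2, chains of the beaded-filament collagen VI, were both lower. Col6a1 was at 17.65, 15.01 and 14.64 CPM in oe-AQP1 and 29.0, 27.0 and 26.4 in oe-NC (log2FC = -0.81, SE 0.08, FDR = 4.33e-05). Col6a2 was rare, at 1.62, 1.91 and 1.65 against 4.28, 4.21 and 4.22 CPM, and had the largest fall among the tested members (log2FC = -1.28, SE 0.15, FDR = 0.000141). Neither gene's samples overlapped between groups, and the genes lie on the same strand of chromosome 10, separated by 83890 bases.

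Col6a3, which supplies the third chain of that trimer, had 8 to 17 counts and did not pass (log2FC = -0.81, FDR = 0.0589). Col6a6, a related chain, was higher at 4.65, 4.09 and 4.43 CPM against 3.62, 2.79 and 2.82 (log2FC = 0.52, SE 0.15, FDR = 0.0232). That call was lost with DESeq2 (adjusted p = 0.0756) and when any of oe-AQP1 replicates 1 or 3 or oe-NC replicates 2 or 3 was left out (FDR 0.0666 to 0.0823). Pik3r4, at a mean of 767.8 counts against 75.9 for Col6a6, overlaps 1.38% of Col6a6's exons on the opposite strand.

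Col1a1, the alpha1 chain of fibrillar collagen I, was lower (12.44, 12.05 and 12.99 against 25.9, 19.8 and 17.6 CPM, log2FC = -0.73, SE 0.14, FDR = 0.00238). Its partner Col1a2 had only 12 to 19 counts per sample and did not pass (log2FC = -0.11, FDR = 0.825). Col9a3, a chain of the cartilage collagen IX, was the collagen with the largest rise, from 7.24, 6.40 and 5.96 CPM in oe-NC to 11.8, 14.3 and 12.1 in oe-AQP1 (log2FC = 0.97, SE 0.12, FDR = 0.000152). The other chains of collagen IX, Col9a1 and Col9a2, had 0 to 2 counts per sample.

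All 6 laminin chains that could be tested were lower in oe-AQP1, with log2FC from -0.73 to -0.29 and a median of -0.51. Of all genes, 16.6% were called lower. Laminins were the only class of the 5 with every tested member called in 1 direction. That depends on the count filter, since Lama2 passed as higher without it (FDR = 0.00699). Lama2 and Lama3 also passed as higher in some refits that left out a single sample. oe-NC replicate 1 was the highest oe-NC sample for each of the 6, and all 6 passed without it, with a median of -0.41.

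Lama5, the alpha chain of the laminins of most mature epithelial basement membranes, was the most abundant laminin at 56.9 ± 8.30 CPM per kb in oe-NC and 34.1 ± 0.408 in oe-AQP1 (SD, n = 3). In CPM it was at 394, 392 and 385 in oe-AQP1 against 761, 601 and 592 in oe-NC. The lowest oe-NC sample was above the highest oe-AQP1 sample by a wide margin (log2FC = -0.73, SE 0.08, FDR = 9.58e-05), and the log2FC without oe-NC replicate 1 was -0.61.

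Lamb2 and Lamc1 encode beta and gamma chains that assemble with it. Lamb2 was at 90.0, 85.9 and 86.0 CPM in oe-AQP1 and 156, 133 and 132 in oe-NC (log2FC = -0.68, SE 0.06, FDR = 2.70e-05). Lamc1 was lower too, at 257, 245 and 251 against 329, 302 and 292 CPM (log2FC = -0.29, SE 0.05, FDR = 0.00107). Lamb1, the alternative beta chain, carries no pathway in the deposited annotation and so is no member, and its counts of 1041, 1175 and 1034 against 1515, 1323 and 1511 gave log2FC = -0.49 (FDR = 4.64e-05).

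Lamb3, a beta chain of epithelial anchoring laminin, was at 11.9, 13.4 and 11.7 CPM in oe-AQP1 and 18.2, 15.7 and 15.7 in oe-NC (log2FC = -0.42, SE 0.09, FDR = 0.00557). Lamc3, a further gamma chain, was at 8.35, 9.37 and 8.85 CPM in oe-AQP1 against 16, 12.9 and 11.9 in oe-NC (log2FC = -0.60, FDR = 0.00353).

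The remaining alpha chains were barely counted. Lama3 had 12, 13 and 7 counts in oe-AQP1 and 3, 4 and 3 in oe-NC, a ratio of 3.07 after scaling to the library totals, with an exact 95% interval of 1.47 to 6.99 that covers counting error only. Lama2, the alpha chain of muscle laminin, had 18, 16 and 7 counts against 1, 1 and 2, a ratio of 9.82 with an interval of 3.56 to 37.8. These ratios run opposite to the abundant chains, but both genes fell below the count filter and have no FDR in the test used here. Without that filter Lama2 passed (FDR = 0.00699), and 7.19% of its exons overlap an antisense transcript. Lama1 had 3 to 11 counts, a ratio of 1.64 with an interval of 0.869 to 3.17, and Lama4 had none.

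**Figure D3:**
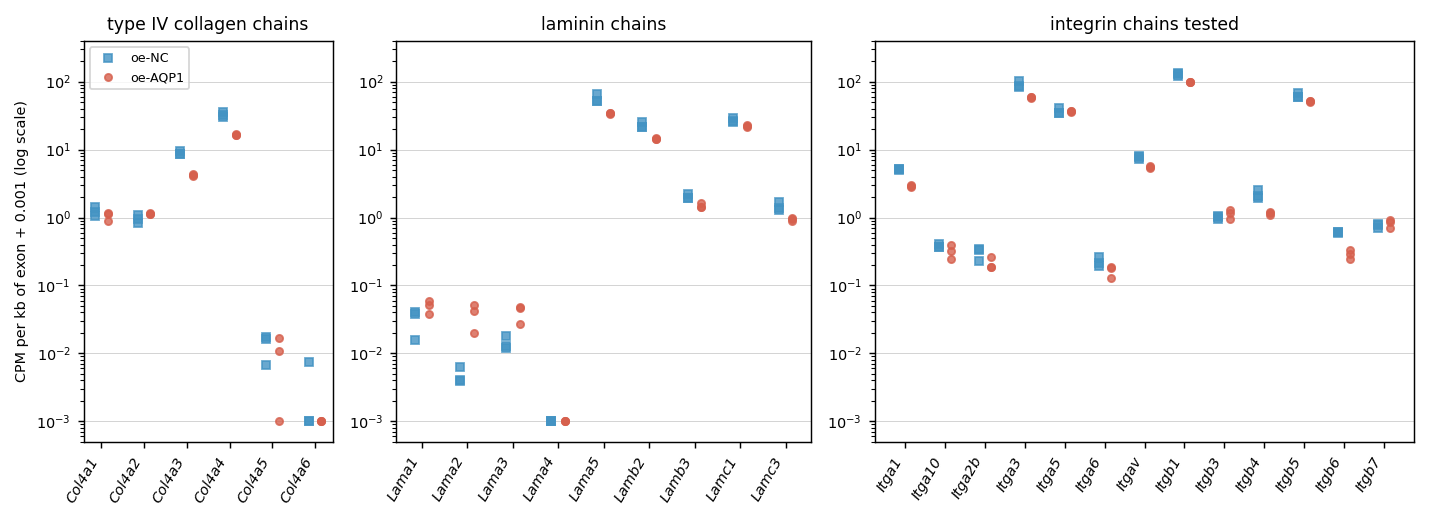
The plot shows the level in CPM per kb of exon plus 0.001 (log scale) of type IV collagen, laminin and tested integrin chains in every sample, with oe-NC as squares and oe-AQP1 as circles. Lama5 is above all other alpha chains in every sample, Col4a3 and Col4a4 are separated by group, and Col4a1 and Itga5 are not.

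Of 25 ligands outside collagens and laminins, 9 were tested, with 4 lower, 1 higher and a median log2FC of -0.31. The share lower was 44.4% against 16.6% of all genes, and the share higher 11.1% against 16%. Spp1, which encodes the integrin-binding phosphoprotein osteopontin, was the most abundant at 202 ± 1.44 CPM per kb in oe-AQP1 and 168 ± 4.56 in oe-NC. It was also the ligand called higher, at 570, 578 and 571 CPM against 464, 488 and 485 (log2FC = 0.26, SE 0.03, FDR = 0.00021). The groups did not overlap, although the difference is small. Its neighbours of the same family on chromosome 5, Ibsp, Mepe, Dmp1 and Dspp, had at most 1 count per sample.

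Tnc, encoding tenascin C, a matrix glycoprotein known from tissue remodelling and tumor stroma, had the lowest FDR of the tested members. It was at 62.9, 63.0 and 60.4 CPM in oe-AQP1 and 123, 117 and 116 in oe-NC (log2FC = -0.93, SE 0.04, FDR = 1.05e-07). The samples within each group lay close together, and the log2FC was -0.91 without oe-NC replicate 1.

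Thbs1, encoding the adhesive glycoprotein thrombospondin 1, fell by 0.31 on the log2 scale (256, 252 and 255 against 328, 312 and 309 CPM, FDR = 0.000118). Agrn, encoding the heparan sulfate proteoglycan agrin, also fell (316, 309 and 304.5 against 434, 370 and 367.5 CPM, log2FC = -0.33, FDR = 0.00214). Hspg2, encoding perlecan, a further basement membrane proteoglycan, was at 0.571 CPM per kb in oe-NC against 40.6 for Agrn, and fell (3.995, 4.502 and 5.739 against 10.2, 7.93 and 9.20 CPM, log2FC = -0.95, SE 0.15, FDR = 0.00088).

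Thbs3 did not pass (log2FC = 0.13, 95% CI 0.02 to 0.24, FDR = 0.0725) except without oe-NC replicate 1 (FDR = 0.00106), and 7.11% of its exons overlap those of Mtx1. Tnxb, Vwf and Fras1 did not pass either. Fn1, encoding fibronectin, had 3 to 11 counts per sample, Npnt had 0 to 6, and Vtn, encoding vitronectin, had none, so that these RGD ligands of integrins were close to or below detection at this depth.

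Of 19 integrin chains, 13 were tested, 7 of them lower and 0 higher (median log2FC -0.45). The share lower was 53.8% against 16.6% of all genes, and 16% of all genes were higher. 0 integrins were higher in limma-voom at an unadjusted p under 0.05, and 0 by the edgeR quasi-likelihood test or DESeq2. Without oe-NC replicate 1, limma-voom gave 7 lower and 1 higher. Itgb1, the beta chain shared by most matrix-binding integrins, was the most abundant at 128 ± 6.69 CPM per kb in oe-NC, followed by Itga3, Itgb5 and Itga5 at 90.2 ± 9.16, 61.7 ± 5.32 and 36.7 ± 3.20.

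Itgb1 was at 589, 595 and 593 CPM in oe-AQP1 and 719, 792 and 783 in oe-NC (log2FC = -0.37, SE 0.04, FDR = 7.70e-05). Here oe-NC replicate 1 was the lowest of its group, and the fall was slightly larger without it (log2FC = -0.41). Itga3, the alpha chain of a laminin receptor with Itgb1, was at 345.5, 346 and 334 against 586, 499 and 490 CPM (log2FC = -0.61, SE 0.06, FDR = 4.46e-05).

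The main collagen-binding alpha chain in these cells was Itga1, at 5.08 ± 0.0862 CPM per kb in oe-NC against 0.378 ± 0.0218 for Itga10 (SD, n = 3). In CPM, Itga1 was at 60.1, 62.5 and 65.0 CPM in oe-AQP1 and 106, 109 and 109 in oe-NC (log2FC = -0.79, SE 0.04, FDR = 4.54e-07). The oe-NC samples differed little from each other, so that the separation was large against the spread. Of its exons, 10.22% overlap Mocs2 on the opposite strand, a gene that did not pass (log2FC = 0.09, FDR = 0.358). Itga2 and Itga11, other collagen receptors, had 0 to 4 counts, and Itga10, with 26 to 45 counts, did not pass (log2FC = -0.26, FDR = 0.40).

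Of the chains that bind RGD sequences, Itgav, Itgb5 and Itgb6 were lower besides Itgb1. Itgav, which pairs with several beta chains, was at 69.2, 67.1 and 69.9 CPM in oe-AQP1 and 90.79, 99.96 and 97.11 in oe-NC (log2FC = -0.48, SE 0.05, FDR = 4.16e-05). Itgb5 was at 368, 366 and 354 against 479, 414 and 414 CPM (log2FC = -0.26, SE 0.06, FDR = 0.00526). Itgb6, an epithelial partner of Itgav, was rare at 2.12, 1.82 and 2.43 against 4.43, 4.54 and 4.27 CPM (log2FC = -1.06, SE 0.15, FDR = 0.000546). Its log2FC was -0.95 without oe-AQP1 replicate 2, which ends its DEG call.

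Itga5, the alpha chain of the fibronectin receptor, did not pass and had a log2FC of 0.00 (95% CI -0.13 to 0.13, FDR = 0.998). It was at 192, 195 and 197 CPM in oe-AQP1 and 215, 186 and 184.5 in oe-NC. Without oe-NC replicate 1 the estimate was 0.07 (FDR = 0.0322), so its sign depends on that sample. Itgb3 did not pass (log2FC = 0.16, FDR = 0.382), and Itga8 and Itgb8 had at most 1 count per sample.

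Itgb4, the beta chain of the hemidesmosome, was at 8.80, 8.32 and 7.98 CPM in oe-AQP1 and 18.04, 14.94 and 13.79 in oe-NC (log2FC = -0.89, SE 0.12, FDR = 0.00025). Its exons overlap those of Galk1 on the opposite strand over 14.88% of their length, and Galk1, at a mean of 1689 counts against 240 for Itgb4, was itself lower (log2FC = -0.23, FDR = 0.0145). The alpha chain that pairs with it, Itga6, had 32 to 55 counts and did not pass (log2FC = -0.45, 95% CI -0.92 to 0.02, FDR = 0.131). Itga7, a laminin receptor chain that the annotation leaves outside the pathway, was lower (log2FC = -0.69, FDR = 1.20e-05).

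**Figure D4:**
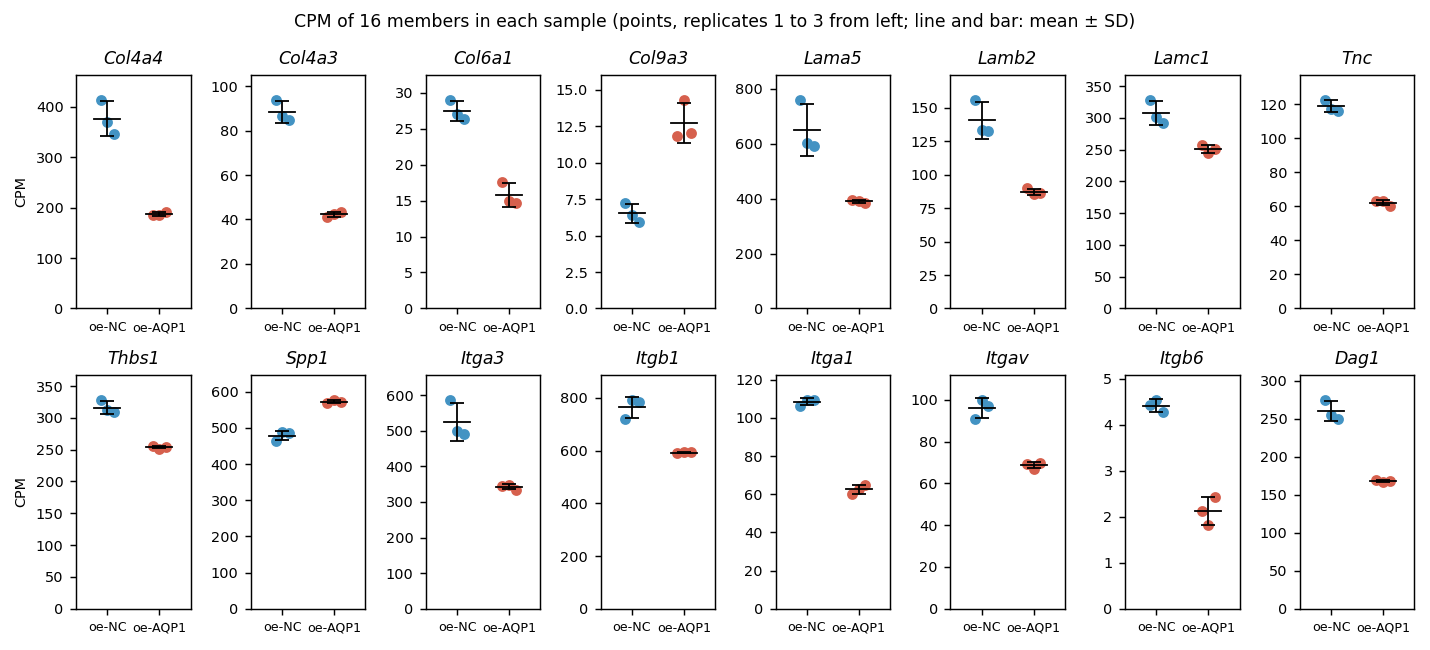
The plot gives CPM (vertical axis, from 0) of 16 members in each sample, with points for replicates 1 to 3 and lines and bars for the mean ± SD of 3 samples. The groups do not overlap for any of the 16, all picked from members called at an FDR under 0.05. Col9a3 and Spp1 are higher in oe-AQP1 and the other 14 are lower. Over all tested genes, the groups did not overlap for 23.8% that were lower and 23.5% that were higher.

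Among the other receptors, 7 of 14 were tested, with 1 lower, 1 higher and a median log2FC of -0.09. Both shares, 14.3% lower and 14.3% higher, were near the 16.6% and 16% of all genes. Dag1, encoding dystroglycan, a receptor for laminin, agrin and perlecan, was at 170, 166.5 and 168.6 CPM in oe-AQP1 and 275, 255 and 250.5 in oe-NC (log2FC = -0.63, SE 0.04, FDR = 2.33e-06). Sdc4, a syndecan of focal adhesions and the most abundant of the class per kb, was higher by a small amount, with 207, 205 and 204 against 183, 193 and 185 CPM (log2FC = 0.13, SE 0.04, FDR = 0.0191). That call was lost when any 1 of the oe-AQP1 samples or oe-NC replicate 3 was left out (FDR 0.0604 to 0.0886).

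Sdc1 (log2FC = -0.09, 95% CI -0.19 to 0.00, FDR = 0.128) and the hyaluronan receptors Cd44 (log2FC = -0.01, 95% CI -0.12 to 0.10, FDR = 0.94) and Hmmr (log2FC = -0.07, FDR = 0.351) did not pass. Gp5, a platelet glycoprotein, had 8, 10 and 9 counts in oe-AQP1 and 3, 3 and 3 in oe-NC, a ratio of 2.88 with an exact counting interval of 1.31 to 6.95, and Gp6, Gp9 and Gp1bb, also of platelets, had at most 1 count. Gp1ba, the remaining platelet glycoprotein, had 14, 21 and 12 counts in oe-AQP1 against 23, 17 and 22 in oe-NC and did not pass (log2FC = -0.49, FDR = 0.201).

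Genes acting with the pathway but outside it were counted from 4 lists, chosen with earlier results of these data known. Of 18 tested genes for focal adhesion and integrin activation, 10 were lower and 2 higher (median log2FC -0.21), against 16.6% and 16% of all genes. The lower ones included Flna, a filamin that links integrins to actin (-0.48, FDR = 2.07e-05), and Tln2, a talin that activates them (-0.54, FDR = 0.000154). Ptk2b, a kinase related to focal adhesion kinase, was higher (log2FC = 0.85, FDR = 9.63e-06), while Ptk2 itself did not pass (log2FC = 0.04, FDR = 0.51).

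Of 9 tested genes for collagen modification and assembly, 7 were lower and 1 higher (median -0.23), against the same 16.6% and 16% of all genes. P4hb, a subunit of prolyl hydroxylase, fell by 0.42 on the log2 scale (FDR = 4.59e-06), and the lysyl hydroxylase Plod3 rose (log2FC = 0.46, FDR = 0.000312). Among partners of collagen and laminin, 3 of 5 tested were lower and 1 was higher, with Nid2, which links laminin to type IV collagen, at log2FC = -0.68 (FDR = 0.000263) and Fbn1, a microfibril protein, at 0.40 (FDR = 0.0172). Of the 6 leukocyte integrins only Itgb2 had enough counts to be tested, and it did not pass (log2FC = 0.09, FDR = 0.524).

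Marker lists of other cell types were read in the same libraries, since matrix genes are strongly expressed by fibroblasts and endothelium. Of the 8 fibroblast markers, 7 had fewer than 10 counts in every sample, and the list summed to 44.3 to 45.3 CPM with oe-AQP1 and 33.8 to 39.4 with oe-NC, nearly all from Pdgfrb (log2FC = 0.34, FDR = 0.00284). Dcn, Lum and Thy1 were at or near 0. Endothelial markers, among them the member Vwf, summed to 2.02 to 2.87 against 1.86 to 2.39 CPM, with Kdr and Emcn at 0.

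Macrophage markers summed to 59.0 to 62.2 against 69.3 to 71.3 CPM, with 2 of 4 tested genes lower (Csf1r, log2FC = -1.51, and Lyz2, -0.52) and Adgre1 at 0. Cd68, the most abundant of them at 33.8 CPM in oe-AQP1 and 30.6 in oe-NC, did not pass (log2FC = 0.15, FDR = 0.0764). Nor did Cd14 (log2FC = -0.16, FDR = 0.147). Platelet markers, of which Itga2b, Gp1ba and Gp9 are also members, summed to 2.38 to 2.73 against 2.85 to 4.08 CPM. Markers of renal epithelium and the tumor line summed to 799 to 832 against 983 to 1090 CPM, with 6 of 8 tested genes lower and a median log2FC of -0.52. Over all tested genes 16.6% were called lower. The part of these marker differences in the results above was not tested.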

How the data were processed

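RNA from 3 oe-AQP1 and 3 oe-NC samples was prepared with an Illumina TruSeq kit. The authors deposited expected counts per gene, unscaled, of which 10.21% of values were not whole; 2 deposited columns of group means (a signal per gene) were not used. The submitters' processing notes name fastp, HISAT2, featureCounts, Subread and the builds GRCm38 and mm10, while the study's methods name GRCm39. Gene positions and exon lengths were taken from GENCODE M39 (GRCm39), which held 78168 of the 78298 genes. 1 gene of the pathway is not reported here, and 1 member is included in the counts only.

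Expected counts were rounded, filtered with edgeR's filterByExpr by group, scaled by TMM and tested with limma-voom on all 6 samples (limma 3.58.1, edgeR 4.0.16, R 4.3.3); 15522 genes were tested. limma-voom, TMM and the thresholds follow the study's methods. Rounding and the filter were chosen here, and the study's removal of interferon and viral defense genes was not applied. Levels between genes are CPM per kb of exon. Alternatives were the edgeR quasi-likelihood test, DESeq2 1.42.0, other scalings and filters, unrounded counts, a replicate block and leaving out each sample. At 18385714.02 to 21920898.67 counts per sample, a gene near 20 counts lies near 1 CPM. Intervals on counts cover counting error only.

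Genes were named if they were DEGs, among the 3 largest changes in either direction or the 3 highest levels of their class, or chains of type IV collagen, of the main laminins or of RGD-binding, collagen-binding and hemidesmosomal integrins. Others were added after their values were seen. Members and lists were chosen with earlier results of these data known.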

Additional observations from a re-analysis of the deposited data

How the results depend on the processing

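The count of members lower in oe-AQP1 stayed between 23 and 25 under every alternative. The count higher was 4 and ranged from 2 (without oe-AQP1 replicate 1) to 8 when single samples were left out. Without oe-NC replicate 1 it was 8, Col4a2, Lama2, Thbs3 and Itga5 being gained, and Itga5 turned from 0.00 to 0.07 (range -0.04 to 0.07 over the samples left out). Members higher as DEGs were 0 but 1 with no low-count filter, and 0 to 3 when single samples were left out, 3 without oe-AQP1 replicate 3. DEGs lower were 4 and ranged from 2 (without oe-AQP1 replicate 2) to 5. Collagens higher were 2 but 1 with DESeq2 and 1 with no filter, and 1 to 3 when single samples were left out. Laminins higher were 0 but 1 with no filter (Lama2, adjusted p = 0.00699), and 0 to 2 with single samples left out, 2 without oe-AQP1 replicate 3 or oe-NC replicate 2, where Lama2 and Lama3 entered the test and passed. Other ligands higher were 1 to 2, integrins higher 0 to 1, other receptors higher 0 to 1 and lower 1 to 2 in the same refits. The median log2FC of -0.37 was -0.24 with no filter, which adds sparse genes, and -0.37 to -0.29 when single samples were left out. The causes were not tested.

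Sample numbers did not pair the samples, the deviations of same-numbered samples correlating at 0.009, -0.004 and -0.068. With the replicate block 24 members were lower and 4 higher, Tnxb being gained (FDR = 0.0295). Of 462 refits of 33 named genes, 450 kept the call, 10 lost it and 1 gained it with the same sign. In 1 more, Itga5 without oe-NC replicate 1, a call was gained with a change of sign (from FDR = 0.998 to 0.0322). A change of sign was counted only where the gene was called in the main fit or the refit. Members below the count filter have no FDR here, so that depth limits what can be said of 39 of the 86.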
